A study of Mus musculus with 10 samples.

Results

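The genes described here encode the antimicrobial products of the intestinal epithelium, chiefly those stored in the granules of Paneth cells. They were taken by name from a table of 45707 genes: every row whose symbol begins with Defa (alpha-defensins and their pseudogenes), the regenerating-protein genes Reg1, Reg3 and Reg4, numbered angiogenins, Lyz1, Lyz2, Mmp7, Itln1, Pla2g2a, Nod2 and Pigr. This gave 47 genes, of which 30 were Defa rows. Reads were found for 37 of them, and 26 passed the filter on low values, which asked for 10 normalized counts or more in 5 or more mice.

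RNA of whole jejunum was sequenced, 1 library per mouse, with 5 Vil-Cre mice as controls and 5 Vil-Cre:NDI1 mice. All were male littermates that carried Villin-Cre, which recombines in intestinal epithelial cells, on a line whose name marks a C57BL/6 congenic background. The Vil-Cre:NDI1 mice also carried NDI1, the yeast NADH dehydrogenase that can stand in for mitochondrial complex I, behind a lox-stop-lox sequence at ROSA26, and the background of that allele is not given in the sources used here. The methods give a general age of 7 to 12 weeks for mice on standard chow, and no separate age for these animals. Every mouse was fasted overnight for 16 to 18 h and gavaged with water 1 h before the jejunum was collected. The comparison asks whether expressing NDI1 in the epithelium by itself altered these genes. Villin-Cre acts in the whole epithelium and is not restricted to Paneth cells, and because tissue was homogenized whole, fewer Paneth cells and less RNA per Paneth cell cannot be told apart.

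Paneth cells sit at the base of the small intestinal crypts beside the stem cells and secrete alpha-defensins, lysozyme, angiogenin 4 and phospholipase into the lumen. Mouse alpha-defensins, also called cryptdins, are made as precursors that the metalloproteinase Mmp7 cleaves, and their genes lie in an array of near-identical copies. The Reg3 lectins are made mainly by enterocytes in response to microbes, and Pigr carries antibodies across the epithelium.

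The values are reads divided by 1 size factor per library, called normalized counts. Between 10145705 and 12371530 reads per library fell on genes, and the members took between 1.31% and 3.23% of them. NDI1 had 982 to 2575 normalized counts in the Vil-Cre:NDI1 mice and 0 to 1.00 in the Vil-Cre mice. All 8 of the Paneth cell markers listed for the check of cell type were present, with summed values of 41598 to 148930 in Vil-Cre mice and 51523 to 157091 in Vil-Cre:NDI1 mice. All of these markers but Mptx2 are themselves members, so they are not a check separate from the members. Neutrophil markers were near 0, with 0 to 5.83 and 1.17 to 4.90 normalized counts summed over 8 genes. Of 13 pancreatic acinar genes, 6 had reads and 2 a mean of 10 or more, with sums of 101 to 204 in Vil-Cre mice and 112 to 204 in Vil-Cre:NDI1 mice, and Prss2 was at 0 in 9 of 10 mice. Genes of the ileum were also detected, in amounts that differed between mice, as given beside the defensins. Hepatocyte genes summed to 53.6 to 1424 in Vil-Cre mice and 46.1 to 116 in Vil-Cre:NDI1 mice.

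The alpha-defensin genes tested here fell into sequence classes. The coding sequences of Defa24, Defa23, Defa3, Defa17 and Defa26 were 89.4% to 100% identical to each other, and those of Defa20, Defa21 and Defa22 were 89.2% to 99.3% identical. Between these classes, identity was 81.2% to 83.7%. Defa5 was 82.6% to 85.5% identical to the members of either class. The last 120 coding bases, which end in the stop codon and hold most of the mature peptide, are shown because they separate the classes. They were read from GENCODE M21 transcripts (GRCm38), and capitals mark bases that differ from Defa24 in a pairwise alignment.
Defa24: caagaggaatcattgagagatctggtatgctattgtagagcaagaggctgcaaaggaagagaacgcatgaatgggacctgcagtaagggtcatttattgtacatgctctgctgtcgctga
Defa23: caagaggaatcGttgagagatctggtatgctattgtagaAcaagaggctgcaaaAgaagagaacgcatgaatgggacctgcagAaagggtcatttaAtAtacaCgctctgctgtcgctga
Defa3: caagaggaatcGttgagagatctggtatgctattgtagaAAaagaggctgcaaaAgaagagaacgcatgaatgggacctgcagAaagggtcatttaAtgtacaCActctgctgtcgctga
Defa20: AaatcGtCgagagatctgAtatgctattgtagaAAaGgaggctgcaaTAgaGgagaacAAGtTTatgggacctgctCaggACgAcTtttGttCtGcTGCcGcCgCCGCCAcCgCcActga
Defa21: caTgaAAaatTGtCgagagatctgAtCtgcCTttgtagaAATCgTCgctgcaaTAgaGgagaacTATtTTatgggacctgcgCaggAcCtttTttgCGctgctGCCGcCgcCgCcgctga
Defa22: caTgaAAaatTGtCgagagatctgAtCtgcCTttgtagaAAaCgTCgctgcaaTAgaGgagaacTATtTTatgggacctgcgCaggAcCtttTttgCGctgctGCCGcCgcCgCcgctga
Over this stretch Defa23 differed from Defa24 at 7 bases and Defa3 at 8, whereas Defa20, Defa21 and Defa22 differed at 37, 37 and 36. Defa17 has the same coding sequence as Defa3 and is not shown.

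All of these genes lie in 1 cluster on chromosome 8, with Defa21 at chr8:21025545-21026516, Defa20 at chr8:21509258-21510237 and Defa24 at chr8:21734494-21735471 on the plus strand (GRCm38). How well 100-base reads can be assigned differs between them. Of the 100-base windows in the annotated transcripts of each gene, 100% were found in no other gene for Defa24, 98.9% for Defa26, 59.7% for Defa22 and 59.6% for Defa21. The share was only 0.307% for Defa20, whose windows recur in Gm15308, Defa2 and Gm21002, and 0% for Defa2. Defa3 and Defa17 shared 86.8% and 90.6% of their windows with each other. Defa23 shared 89.1% of its windows with Defa-rs7, a gene listed at 0 in every mouse. For Defa5 the share found in no other gene was 11.9%, and 74.7% of its windows recur in Gm15315. Values of these genes are therefore uncertain as values of single genes, whereas those of Defa24, the Reg genes, Ang4, Itln1 and Nod2 rest on windows found nowhere else in the transcripts.

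Per kilobase of transcript, Defa24 was the most abundant member (79094 normalized counts per kb, mean of 10 mice), followed by Defa20 (52202), Defa23 (34404), Defa3 (29096), Defa22 (24517), Defa21 (22625), Lyz1 (20004) and Reg3b (19855). The ranges of neighbours in this order overlapped over the 10 mice. Itln1, a lectin that binds microbial sugars, stood at 14070 and Ang4, a microbicidal ribonuclease, at 9911. Mmp7, the activating protease, was present at 1085, and Nod2, an intracellular sensor of bacterial peptidoglycan, at 3.39. The plot of levels per kilobase shows these values in each mouse.

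**Figure D1:**
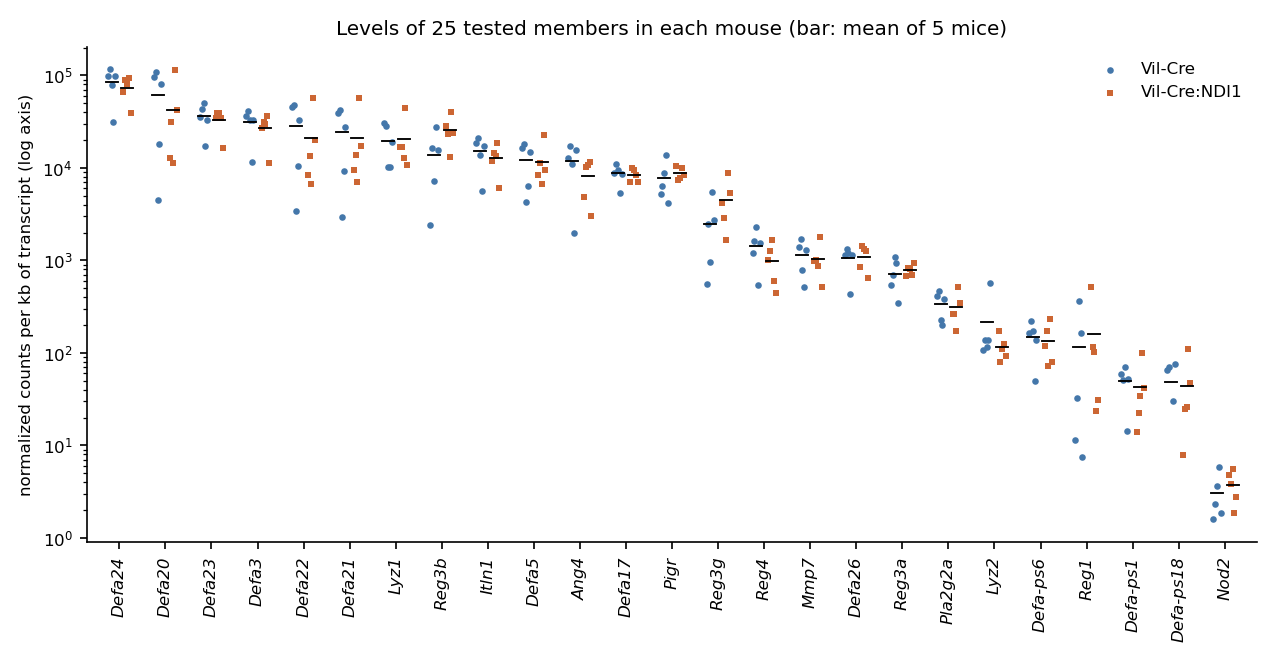
Normalized counts per kilobase of the longest annotated transcript (y axis, log scale) of 25 tested members, ordered by their mean over 10 mice. Each point is 1 mouse (blue circles, Vil-Cre; orange squares, Vil-Cre:NDI1), bars are means of 5 mice, and 1 mouse at 0 for Defa-ps18 is not drawn; the genotypes overlap for every gene drawn.

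No member differed between genotypes past the threshold. With limma, fitted over 14301 genes, 0 of 26 members had an adjusted p under 0.05, beside 0.00699% of all genes tested, which is NDI1 alone. None had an unadjusted p under 0.05, beside 4.24% of all genes. With DESeq2 and edgeR on the recovered reads, 0 of 26 members passed at an adjusted p under 0.05 (background 0.183% and 0.00699%). None had an unadjusted p under 0.05 either, beside 4.78% and 4.66% of all genes. DESeq2 gave no adjusted p for Lyz2, which is therefore counted as not called there without a test result. The genotypes overlapped for all 26 members, and did not overlap for 0.699% of all genes. The median log2 fold change was -0.10 over the members and 0.01 over all genes tested, with 11 members above 0 and 15 below.

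The error on these differences was large, since the members varied more between mice of a genotype than most genes. Their median within-genotype SD was 0.76 on the log2 scale, and that of all genes tested was 0.29. This spread was not particular to the members. The median SD was 0.80 for 18 other Paneth secretory genes tested and 0.76 for 16 other antimicrobial genes tested. It was 0.30 for 22 genes that guide Paneth cell fate, secretion and autophagy. The 95% interval of the difference between genotypes stayed between -1 and 1 log2 units for 11 of the 26 members and for 11383 of the 14301 genes tested. For the other 15 members, the interval reached past 1 log2 unit in at least 1 direction.

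**Figure D2:**
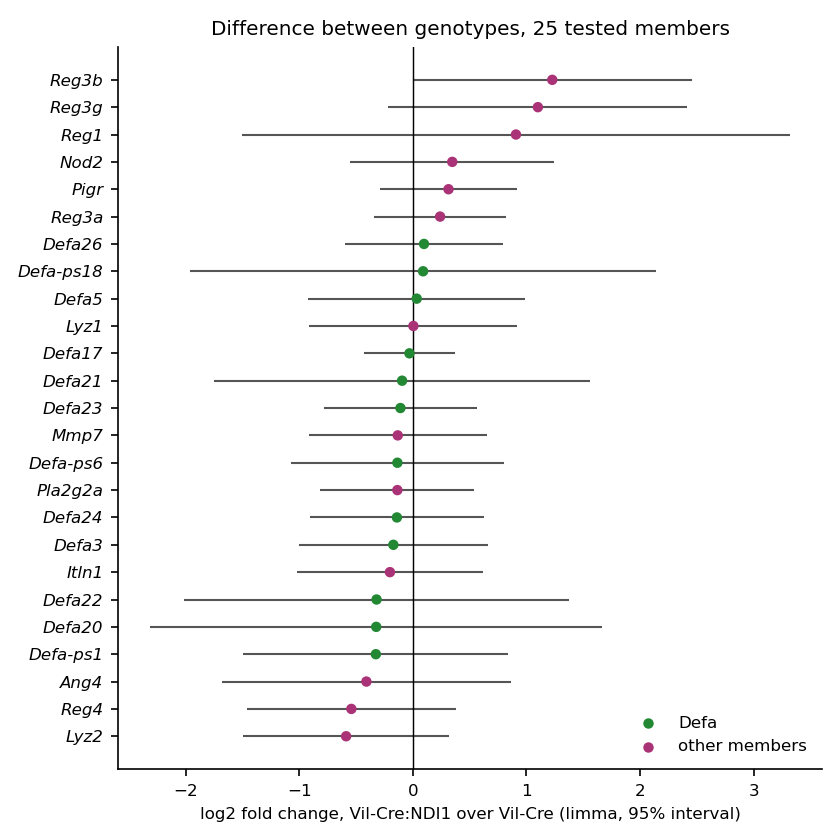
Log2 fold change of Vil-Cre:NDI1 over Vil-Cre (x axis; limma on log2(value + 1)) for 25 tested members, with 95% intervals as lines (green, Defa; purple, other members). Every interval includes 0, the one for Reg3b from -0.0021 to 2.46, and those of Defa20, Defa21, Defa22, Defa-ps18 and Reg1 are the widest.

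Defa24 had 40943, 48553, 32949, 13275 and 41623 normalized counts in Vil-Cre mice 1 to 5, and 27734, 36980, 33844, 39060 and 16443 in Vil-Cre:NDI1 mice 1 to 5. One mouse of each genotype, Vil-Cre 4 and Vil-Cre:NDI1 5, was low and the other 8 overlapped. Between genotypes the log2 fold change was -0.14 ± 0.35 (SE; limma adjusted p = 0.998; exact permutation p = 0.659, two-sided).

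In Defa23 and Defa3, of the same class, these mice were low too. Defa23 had 14534, 17984, 20896, 7067 and 13462 in Vil-Cre mice, and 14227, 16155, 16130, 14149 and 6796 in Vil-Cre:NDI1 mice. Defa3 had 14994, 16803, 13671, 4727 and 13413 in Vil-Cre mice, and 11088, 12747, 12346, 14850 and 4655 in Vil-Cre:NDI1 mice. In both genes Vil-Cre:NDI1 5 was the lowest mouse and Vil-Cre 4 the next, and the genotypes overlapped. Their log2 fold changes were -0.11 ± 0.31 and -0.17 ± 0.38 (SE; limma adjusted p = 0.998 for each). Defa17 and Defa26, which the rule for named genes did not take and which complete the class, ranged over 2.09-fold and 3.26-fold between the highest and lowest mouse, with log2 fold changes of -0.03 and 0.10.

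The Defa20 class varied far more from mouse to mouse. Defa20 had 41232, 46152, 1890, 7779 and 34257 normalized counts in Vil-Cre mice 1 to 5, and 5503, 13410, 4811, 48639 and 18186 in Vil-Cre:NDI1 mice 1 to 5. High and low mice were found in both genotypes, and the highest value was 25.7 times the lowest. Defa21 ranged from 1228 to 17496 in Vil-Cre mice and was between 2942 and 23907 with NDI1, and Defa22 ranged from 1417 to 19915 and from 2797 to 23694. For all 3 genes Vil-Cre 3 was the lowest mouse and Vil-Cre:NDI1 4 the highest. Log2 fold changes between genotypes were -0.32 ± 0.91 for Defa20, -0.09 ± 0.76 for Defa21 and -0.32 ± 0.77 for Defa22 (SE; limma adjusted p = 0.998 for each). Their within-genotype SD of 1.71, 1.42 and 1.45 log2 units was larger than that of 99.0%, 98.1% and 98.2% of all genes tested, while the SD of Defa24 was 0.64 and that of Defa17 was 0.33.

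The balance of the classes therefore differed between mice. The summed Defa20 class was 0.0632 times the Defa24 class in Vil-Cre 3, 0.159 times in Vil-Cre:NDI1 3, 0.231 times in Vil-Cre:NDI1 1, 0.353 times in Vil-Cre:NDI1 2 and 0.586 times in Vil-Cre 4. It was 0.825 times in Vil-Cre 5, 0.947 times in Vil-Cre 2, 1.04 times in Vil-Cre 1, 1.09 times in Vil-Cre:NDI1 5 and 1.34 times in Vil-Cre:NDI1 4. The classes were drawn by sequence, at an identity limit of 89% chosen with these values known. Because reads of Defa20 cannot be separated from those of Defa2, Gm15308 and Gm21002, these 4 genes were also summed, and that sum ranged from 0.0381 to 1.15 times the Defa24 class. Gm15308 and Gm21002 themselves ranged from 275 to 17535 and from 566 to 16360 normalized counts. Both were lowest in Vil-Cre 3 and highest in Vil-Cre:NDI1 4.

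**Figure D3:**
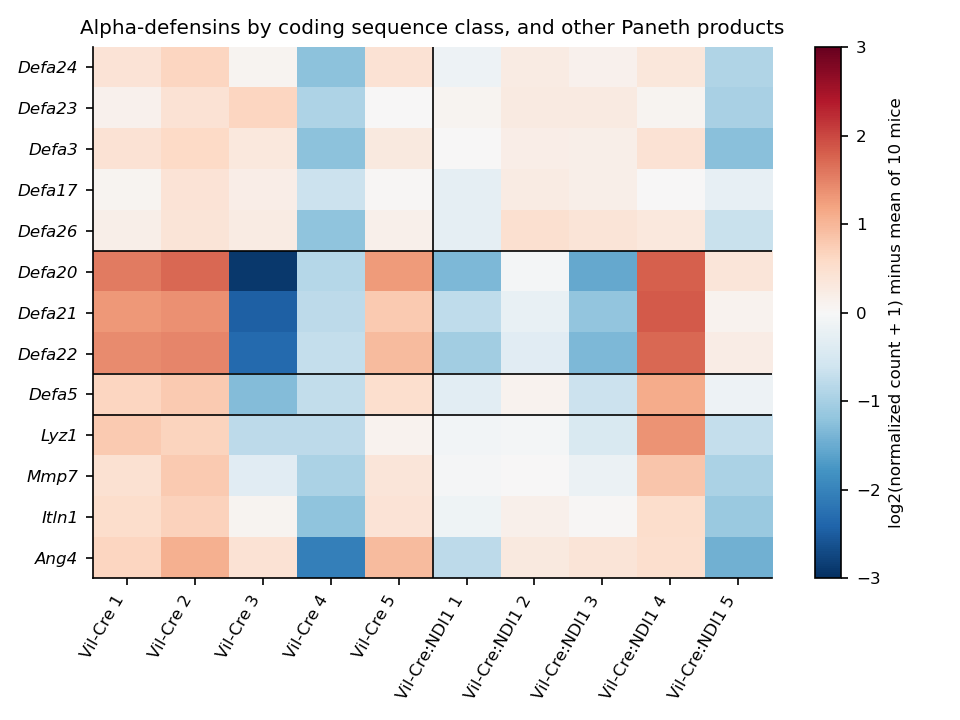
Difference of log2(normalized count + 1) from the mean of 10 mice (colour) for 9 alpha-defensin genes and 4 other Paneth products (rows) in each mouse (columns, Vil-Cre left of the vertical line). Horizontal lines part the Defa24 class, the Defa20 class, Defa5, and the other products; the Defa20 class is darkest, from low in Vil-Cre 3 to high in Vil-Cre:NDI1 4, and Vil-Cre 4 is low across the Defa24 class.

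Genes that mark position along the small intestine varied together with the Defa20 class. The 5 mice with the most Defa20 (Vil-Cre:NDI1 4, Vil-Cre 2, Vil-Cre 1, Vil-Cre 5 and Vil-Cre:NDI1 5) were also the 5 with the most Slc10a2, the bile acid transporter of the ileum. Slc10a2 was between 199 and 561 normalized counts in these mice and at most 21 in the other 5. They were also the 5 mice with the least Onecut2, a transcription factor of the proximal intestine, at 20.6 to 81.0 against at least 341 in the others. Of 7 ileal genes listed, 5 (Fabp6, Slc10a2, Slc51a, Slc51b and Fgf15) had their 5 highest values in these same mice. Fgf15 was low, at 2.94 to 62.2 in them and at 0 in the others. Hoxb9, at most 7.77 in any mouse, had 4 of its 5 highest there, and Hoxb13 was at 0 in every mouse. Of 7 genes listed for duodenum and jejunum, Gata4, Onecut2, Lct and Fabp1 had their 5 lowest values in these mice, and Pdx1 had 4 of its 5 lowest. Cybrd1 and Slc40a1 went the other way, with 4 and 3 of their 5 highest values in these mice. Other Paneth genes shared this order of mice in part. Defa24, Defa3, Defa5, Lyz1, Mmp7, Itln1 and Ang4 each had 4 of their 5 highest values in these mice, and Defa23, Defa17 and Defa26 had 2. Summed ileal genes were 2769 to 7999 in Vil-Cre mice and 2805 to 6770 in Vil-Cre:NDI1 mice, so the genotypes overlapped here too. These genes were set beside Defa20 after its values had been seen, and their part in its variation was not tested.

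**Figure D4:**
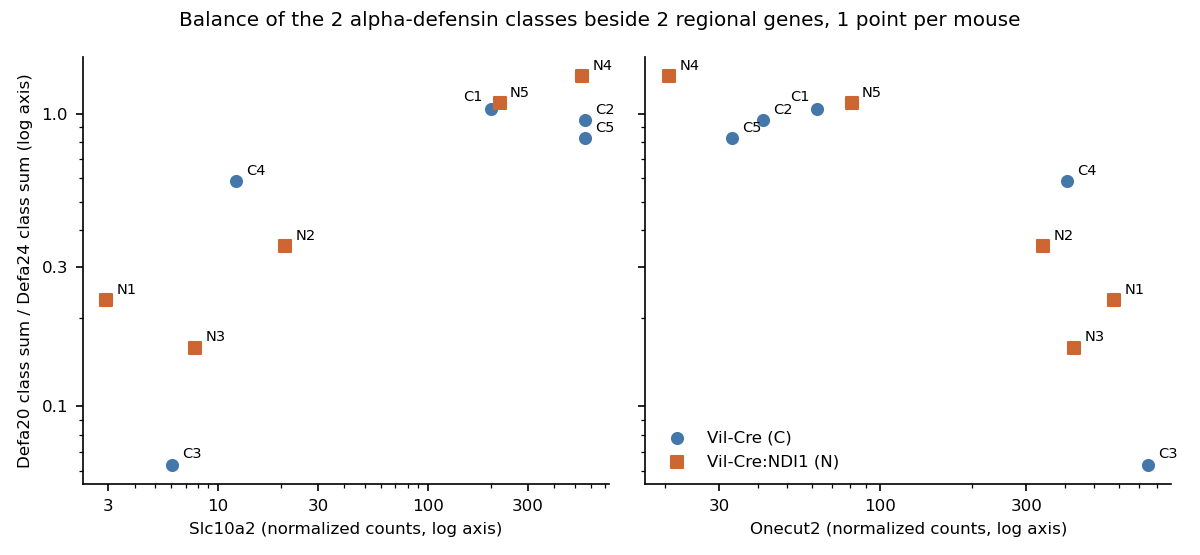
Ratio of the summed Defa20 class to the summed Defa24 class (y axis, log scale) against normalized counts of Slc10a2 (left) and Onecut2 (right; x axes, log scale), 1 point per mouse (C, Vil-Cre; N, Vil-Cre:NDI1, with the replicate number). The 5 mice with ratios of 0.825 or more have at least 199 of Slc10a2 and at most 81.0 of Onecut2, and both genotypes are found on each side.

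Promoters of 5 Defa genes were given in the RefSeq table (GRCm38.p6), which held entries for 20 of the 47 members. The 120 bases before the start are shown because genes of both classes are among them, with capitals on the letters CTTTGA, the core bound by TCF factors of the Wnt pathway, here read on the other strand as TCAAAG, and on the TATA box letters TATAAA.
Defa23, chr8:21054920-21055039, plus strand: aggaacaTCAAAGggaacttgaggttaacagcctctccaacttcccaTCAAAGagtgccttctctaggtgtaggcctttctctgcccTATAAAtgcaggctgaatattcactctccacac
Defa20, chr8:21509138-21509257, plus strand: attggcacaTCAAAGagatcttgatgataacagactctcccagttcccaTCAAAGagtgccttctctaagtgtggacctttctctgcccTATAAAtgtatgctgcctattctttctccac
Defa22, chr8:21162157-21162276, plus strand: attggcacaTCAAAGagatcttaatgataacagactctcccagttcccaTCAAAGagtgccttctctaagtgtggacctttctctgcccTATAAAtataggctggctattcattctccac
The TCF letters occurred at 2 places in all 5 promoters, 111 and 71 bases before the start in Defa20, Defa21, Defa22 and Defa2 and 113 and 73 bases before it in Defa23. Searched on both strands, they were present in 16% of all 32851 promoters of this length and in 5 of the 15 promoters of other members (Reg3a, Reg3b, Reg3d, Reg3g and Mmp7). TATAAA was found in 13.6% of all promoters. Over the whole promoter, from 250 bases before to 50 bases after the start, those of Defa20 and Defa2 were 100% identical, as were those of Defa21 and Defa22, while Defa23 was 82.0% identical to Defa20. The letters AGATAA, read by GATA factors, and TTTATG, read by CDX factors, were in none of the 5 and in 11.2% and 11.9% of all promoters. No other letters were searched for these factors. The related letters TGATAA stand in the printed stretches of Defa20 and Defa22, so the absence of AGATAA does not mean that GATA letters are absent. A match is a stretch of letters, and binding was not measured.

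Of the remaining alpha-defensins, Defa5 ranged from 1604 to 6855 in Vil-Cre mice and was between 2524 and 8497 with NDI1. Most of its windows recur in other genes, so its values are uncertain as those of a single gene. Its log2 fold change was 0.03 ± 0.44 (SE; limma adjusted p = 0.999), and the sign turned when every library was rescaled to the same total, to -0.03. Defa2 was read in 3 mice only, with 220 in Vil-Cre 4, 130 in Vil-Cre 5 and 587 in Vil-Cre:NDI1 5, and at 0 in the other 7. None of its windows is its own, so these values cannot be assigned to Defa2 with certainty. Defa25 had reads in 1 mouse, Vil-Cre 3, at 6.01 normalized counts.

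Of the 17 pseudogenes, 11 had reads and 3 passed the filter, Defa-ps6, Defa-ps1 and Defa-ps18, with means of 40.0 or less. Defa-ps18 was at 0 in Vil-Cre 3 and at 41.1 in Vil-Cre:NDI1 4, the same low and high mice as for the Defa20 class. The smallest p among Defa rows was that of Defa-ps1, with a log2 fold change of -0.33 ± 0.53 (SE; limma p = 0.553, adjusted p = 0.998; exact permutation p = 0.571). Defa-ps16 had 14.95 normalized counts in Vil-Cre 1 and at most 6.86 elsewhere, with 6 mice at 0. The 10 members without a read were Defa-rs7, 6 Defa pseudogenes, Ang2, Ang5 and Ang6. A count of 0 allows up to 3 reads, which is 2.73 to 3.52 normalized counts depending on the library and covers counting error only. This limit does not hold for Defa-rs7 and Defa-ps8, which have no window of their own, since their reads could be assigned to Defa23 and Gm15313.

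Lyz1, the lysozyme of Paneth cells, had 38225, 35522, 12972, 12975 and 24205 normalized counts in Vil-Cre mice, and 21072, 21331, 16212, 56443 and 13690 in Vil-Cre:NDI1 mice. Vil-Cre:NDI1 4 stood far above the rest of its group, whose other mice lay inside the Vil-Cre range. Lyz1 had a log2 fold change of 0.01 ± 0.42 (SE; limma adjusted p = 1.00; exact permutation p = 1.00, two-sided) with an interval of -0.91 to 0.92. It was -0.06 when every library was rescaled to the same total.

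Mmp7 had 1476, 1838, 840, 556 and 1375 in Vil-Cre mice, and 1040, 1081, 938, 1898 and 549 in Vil-Cre:NDI1 mice. Lyz1 and Mmp7 rose and fell together over the 10 mice, with Pearson's r = 0.92 (permutation p = 0.00027, adjusted 0.000675 over 5 pairs of genes) and Spearman's rho = 0.94 (permutation p = 0.00019). Without Vil-Cre 1 and Vil-Cre:NDI1 4, the mice farthest from the median of Lyz1, r was 0.93 (exact permutation p = 0.000347). The log2 fold change of Mmp7 was -0.13 ± 0.36 (SE; limma adjusted p = 0.998).

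Itln1 had 21332, 23928, 15747, 6365 and 19648 in Vil-Cre mice, and 13632, 16438, 15210, 21362 and 6873 in Vil-Cre:NDI1 mice. Ang4 had 9096, 12106, 7864, 1406 and 11167 in Vil-Cre mice, and 3400, 7171, 7612, 8306 and 2142 in Vil-Cre:NDI1 mice. The low mice were again Vil-Cre 4 and Vil-Cre:NDI1 5 for both genes. Their log2 fold changes were -0.20 ± 0.37 and -0.41 ± 0.58 (SE; limma adjusted p = 0.998 for each). For Ang4 the value was -0.97 without Vil-Cre 4 and -0.099 without Vil-Cre:NDI1 5. Lyz1 and Ang4 had r = 0.60 (permutation p = 0.0654, adjusted 0.0817) and rho = 0.67 (permutation p = 0.0389, adjusted 0.0394), and without the same 2 mice r was 0.65 (exact permutation p = 0.0859). Pla2g2a, a phospholipase that is disrupted in C57BL/6 mice and annotated here as a polymorphic pseudogene, ranged from 158 to 369 in Vil-Cre mice and was between 137 and 409 with NDI1 (log2 fold change -0.14 ± 0.31, SE). Nod2 ranged from 7.48 to 27.3 and from 8.81 to 26.1, with a log2 fold change of 0.35 ± 0.41 (SE).

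Lyz2, the lysozyme of macrophages and other myeloid cells, had 143, 181, 153, 180 and 759 normalized counts in Vil-Cre mice, and 228, 105, 144, 165 and 123 in Vil-Cre:NDI1 mice. Vil-Cre 5 alone was high and the other 9 mice overlapped. Its log2 fold change was -0.59 ± 0.41 (SE; limma adjusted p = 0.998), and it was -0.15 without Vil-Cre 5. In that mouse the macrophage receptor gene Csf1r was at 183 and C1qa at 168, within the ranges of 69.3 to 284 and 66.9 to 234 over all mice. The B cell genes Ms4a1, Cd79b and Cd79a were at their highest there, at 236, 258 and 315, against at most 7.83, 23.5 and 53.9 in the other mice. Over the 10 mice Lyz2 and Csf1r had r = 0.56 (permutation p = 0.0834, adjusted 0.0834) and rho = 0.87 (permutation p = 0.00216, adjusted 0.0036). Without Vil-Cre 5 and Vil-Cre:NDI1 2, r was 0.94 (exact permutation p = 0.000794).

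The largest differences between genotypes were in Reg3b and Reg3g, C-type lectins that bind bacteria. Reg3b had 1887, 12738, 5614, 21635 and 12168 normalized counts in Vil-Cre mice, and 22049, 18407, 10305, 31865 and 18793 in Vil-Cre:NDI1 mice. In Vil-Cre:NDI1 animals, 4 of the 5 were above 4 of the 5 Vil-Cre mice, and Vil-Cre 4 and Vil-Cre:NDI1 3 crossed over. The log2 fold change was 1.23 ± 0.56 (SE; 95% interval -0.0021 to 2.46; limma p = 0.0503, adjusted p = 0.998; exact permutation p = 0.0952, two-sided, with 0.00794 the smallest it can give). Leaving out Vil-Cre 1, the lowest mouse, lowered it to 0.70, and leaving out Vil-Cre 4 raised it to 1.58.

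Reg3g had 1152, 5185, 2031, 11539 and 5733 in Vil-Cre mice, and 8654, 5944, 3480, 18386 and 11097 in Vil-Cre:NDI1 mice. Vil-Cre:NDI1 4 was highest and Vil-Cre 1 lowest for both genes. The log2 fold change was 1.101 ± 0.60 (SE; limma p = 0.0929, adjusted p = 0.998; exact permutation p = 0.175). It was 0.67 without Vil-Cre 1 and 1.501 without Vil-Cre 4. Reg3b and Reg3g followed each other over the mice, with r = 0.96 (permutation p = 1e-05, the smallest that 100000 resamples give, adjusted 5e-05) and rho = 0.95 (permutation p = 0.0001). Without Vil-Cre 1 and Vil-Cre 3, r was 0.93 (exact permutation p = 0.00112).

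The differences of the other Reg genes did not pass the test either. Reg3a had 442, 576, 892, 780 and 283 in Vil-Cre mice, and 567, 692, 662, 573 and 775 in Vil-Cre:NDI1 mice. The Vil-Cre:NDI1 mice lay inside the wider range of the Vil-Cre mice. The log2 fold change of Reg3a was 0.24 ± 0.27 (SE; limma adjusted p = 0.998), and 0.0012 without Vil-Cre 5. Reg4, a lectin of enteroendocrine and secretory cells, ranged from 547 to 2347 in Vil-Cre mice and was between 453 and 1681 with NDI1, a log2 fold change of -0.54 ± 0.42 (SE). Reg1 varied most of all members with reads in every mouse and above the filter, from 6.80 in Vil-Cre 5 to 471 in Vil-Cre:NDI1 1, and had a log2 fold change of 0.91 ± 1.101 (SE; limma adjusted p = 0.998). That of Reg1 ranged from 0.26 without Vil-Cre:NDI1 1 to 1.65 without Vil-Cre 3, and was 0.46 with DESeq2. Reg3d, which failed the filter, had at most 14.2 normalized counts.

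Pigr had 20280, 24629, 34051, 53357 and 16220 in Vil-Cre mice, and 40822, 28822, 29998, 38034 and 32594 in Vil-Cre:NDI1 mice. Vil-Cre 4 was the highest and Vil-Cre 5 the lowest of the 10, so the Vil-Cre:NDI1 mice lay inside the Vil-Cre range. The log2 fold change was 0.31 ± 0.28 (SE; limma adjusted p = 0.998; exact permutation p = 0.341). It was 0.56 without Vil-Cre 4 (adjusted p = 0.836). DESeq2 was also run on 8 libraries, without Vil-Cre 3 and Vil-Cre 4, a choice made after seeing the data. It called Pigr alone among the members (log2 fold change 0.74, adjusted p = 0.00353) beside 1.77% of all genes. The mice left out had the highest Pigr values of the Vil-Cre mice. Every Vil-Cre mouse kept was below every Vil-Cre:NDI1 mouse, so leaving them out moves the genotypes apart. With edgeR on the same libraries Pigr was not called (adjusted p = 0.414). Pigr and Jchain, the joining chain of the antibodies that Pigr carries, had r = 0.62 (permutation p = 0.0591, adjusted 0.0817) and rho = 0.67 (permutation p = 0.0394, adjusted 0.0394). Without Vil-Cre 4 and Vil-Cre 5, r was 0.40 (exact permutation p = 0.331).

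**Figure D5:**
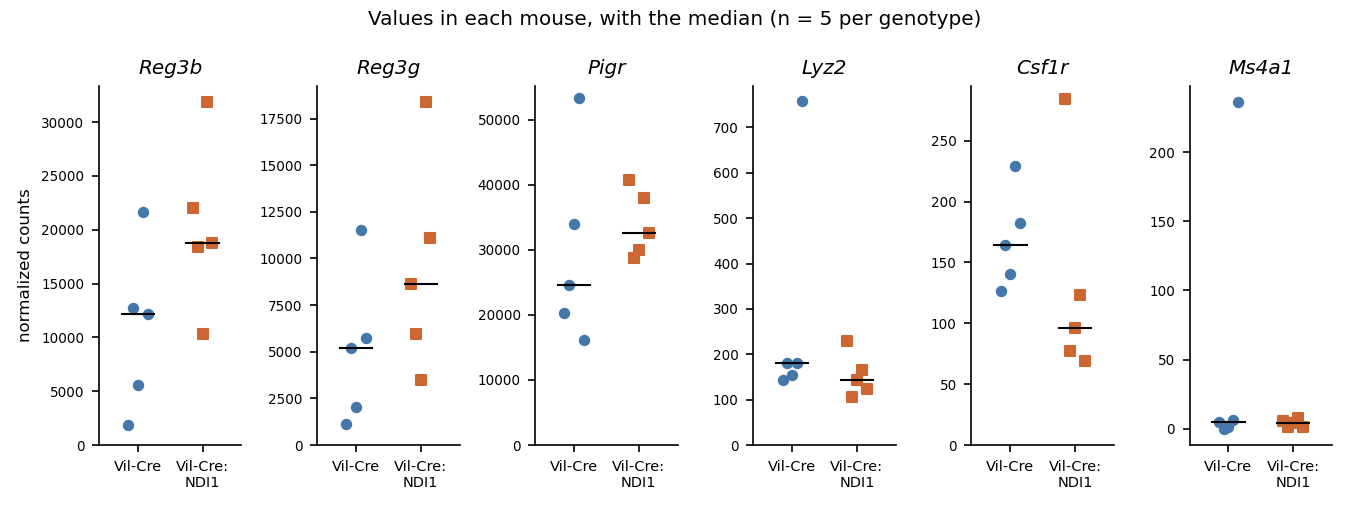
Normalized counts (y axes) of Reg3b, Reg3g, Pigr and Lyz2 with the macrophage gene Csf1r and the B cell gene Ms4a1 in each of 5 Vil-Cre (blue circles) and 5 Vil-Cre:NDI1 mice (orange squares); lines are medians. Genotypes overlap in every panel, and Vil-Cre 5 is the single high point for Lyz2 (759) and for Ms4a1 (236).

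The same mouse was often the highest or the lowest for several members. Vil-Cre:NDI1 4 was the highest of the 10 mice for 13 of the 26 tested members, Vil-Cre 4 the lowest for 7 and Vil-Cre 3 the lowest for 6. These counts have no share over all genes beside them, so they do not show whether the members differ from other genes. Some members, such as Defa21 and Defa22, share windows and are not separate observations. Without Vil-Cre 4, 5 members had an unadjusted p under 0.05 with limma, Reg3b, Reg3g and Pigr higher and Ang4 and Reg4 lower in Vil-Cre:NDI1 mice, beside 5.82% of all genes. None of them passed at an adjusted p under 0.05 (smallest 0.836), and 0.00699% of all genes did. Vil-Cre 4 was the highest control for Reg3b, Reg3g and Pigr and the lowest for Ang4 and Reg4, so leaving it out moves these genes apart. Of the 10 fits that left out 1 mouse, this one is named because it had the most such members. The others had 0 to 2, beside 3.50% to 5.05% of all genes. With the replicate number as a block, Reg3b and Reg3g had an unadjusted p under 0.05, 2 of 26 members beside 3.7% of all genes, and 0 members passed after adjustment. Reg3b alone was under 0.05, unadjusted, in 3 other limma fits on all 10 mice. These used a pseudocount of 8, no filter beyond a value above 0 in at least 1 mouse, or array weights. The shares of all genes were 4.24%, 4.32% and 5.54%, and 0 members passed after adjustment in each.

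No gene of 4 further lists passed at an adjusted p under 0.05 with limma. Among 21 other Paneth secretory genes, 18 were tested and 0 had a limma p under 0.05, with a median log2 fold change of -0.22. Gm7861 and Gm14850, defensin-like genes of the cluster, were the most abundant, at 19541 ± 10526 and 11689 ± 4421 in Vil-Cre mice and 17424 ± 8628 and 11815 ± 4221 in Vil-Cre:NDI1 mice (SD, n = 5). Mptx1, a mucosal pentraxin, had 47.7, 113, 148, 4.04 and 100.04 in Vil-Cre mice, and 6.86, 37.4, 34.9, 10.8 and 18.8 in Vil-Cre:NDI1 mice. Vil-Cre 4 was the lowest of all, and the other 4 Vil-Cre mice were above every Vil-Cre:NDI1 mouse. Its fold change was -1.48 ± 0.85 on the log2 scale (SE; limma p = 0.109, adjusted p = 0.998; exact permutation p = 0.175). DESeq2 without Vil-Cre 3 and Vil-Cre 4, which leaves out the lowest mouse, called Mptx1 (-1.99, adjusted p = 0.0135) beside 1.77% of all genes. Neither edgeR on the same libraries (adjusted p = 0.414) nor DESeq2 on all 10 (adjusted p = 0.497) did.

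Of 22 genes that guide Paneth cell fate, secretion and autophagy, all were tested, and 1 had a limma p under 0.05 where 4.24% of all genes did. This was Gfi1, a transcription factor of secretory cells, with 64.5, 55.8, 46.1, 44.5 and 54.4 in Vil-Cre mice, and 37.2, 21.9, 35.8, 60.7 and 27.0 in Vil-Cre:NDI1 mice. Of the Vil-Cre:NDI1 mice, 4 were below every Vil-Cre mouse and Vil-Cre:NDI1 4 was above all but 1 of them. The log2 fold change was -0.60 ± 0.26 (SE; limma p = 0.0426, adjusted p = 0.998; exact permutation p = 0.0556). Ctnnb1, encoding beta-catenin, and Fzd5, the Wnt receptor of Paneth cells, were the most abundant of the list, at 8924 ± 1081 and 2055 ± 121 in Vil-Cre mice and 9501 ± 738 and 2146 ± 264 in Vil-Cre:NDI1 mice (SD, n = 5).

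Among 18 genes of innate signalling upstream of these products, 14 were tested and 0 had a limma p under 0.05. Nlrp6, an inflammasome sensor, averaged 2774 ± 279 without NDI1 and 2781 ± 323 with it, and Stat3, which relays signals of the cytokine IL-22, at 1964 ± 336 and 1854 ± 406 (SD, n = 5). Il10rb, a receptor chain for the same cytokine, had the smallest p, with 1520 ± 266 and 1823 ± 293 and a log2 fold change of 0.27 ± 0.15 (SE; limma p = 0.0986, adjusted p = 0.998; exact permutation p = 0.151). Il22 itself did not pass the filter.

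Of 25 other antimicrobial genes, 16 were tested and 0 had a limma p under 0.05. Sprr2a2, of a family of secreted small proline-rich proteins, averaged 40873 ± 27231 without NDI1 and 34036 ± 19569 with it, and the goblet cell lectin Zg16 at 18415 ± 2750 and 16205 ± 3163 (SD, n = 5). Dmbt1, a mucosal scavenger protein, had the smallest p of the list, with 6732 ± 2648 and 9325 ± 3800 and a log2 fold change of 0.45 ± 0.29 (SE; limma p = 0.156, adjusted p = 0.998; exact permutation p = 0.206).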

How the data were processed

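RNA of 10 jejunal samples (5 Vil-Cre, 5 Vil-Cre:NDI1) was sequenced single-end for 100 cycles. The authors trimmed the reads, mapped them with STAR onto GRCm38 extended by NDI1 and counted genes with Salmon. The deposited signal is normalized counts, in which each library's reads were divided by its own DESeq2 size factor. The strand setting and annotation release are not given in the sources used here. Taking the smallest non-zero value of a library as 1 read, 100% of values were whole within 0.01. Columns not used numbered 0.

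Genotypes were compared with limma 3.58.1 (R 4.3.3), using log2(value + 1), a trended prior variance and Benjamini-Hochberg adjustment across 14301 genes with 10 or more in 5 or more mice. Fold changes on this scale understate those of low genes. Recovered reads were tested with DESeq2 1.42.0 and edgeR 4.0.16. The study's methods name a DESeq2 test, which the deposited unit does not allow as the first test. Single genes were also tested by exact permutation over all 252 assignments, and 5 chosen pairs by correlation. The fits were tested on simulated data. Genes were matched to GENCODE M21 by identifier. p-values measure the spread between these mice.

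The members, the gene lists and the sequence classes were chosen with earlier results of these data known. Named genes were NDI1, all members outside Defa, the 8 Defa rows with the highest mean, the 3 with the smallest p, members with p under 0.05 or with both 0 and at least 10, and, from each of 4 lists, the 2 with the highest mean, the 1 with the smallest p and any with p under 0.05. Another gene that the rule takes, and a gene set beside Lyz2, are not reported here. Members named outside this rule, and the genes set beside the members, were chosen after their values were seen. Replicate numbers did not pair the mice, so the replicate block was an alternative. Other alternatives were pseudocounts of 0.1 and 8, 2 filters, rescaling to equal totals, no variance trend, array weights, the count tests, all Defa rows summed, and leaving out each mouse. Leaving out Vil-Cre 3 and Vil-Cre 4 together was chosen after seeing the data.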

Additional observations from a re-analysis of the deposited data

Results flagged for a closer look

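Within a genotype, 1 mouse stood apart from the other 4 by Dixon's test in 10 of 54 sets of a gene and a genotype. Chance flags about 1 in 20 where values follow a normal distribution. The values were not put on a log scale, so that rate need not hold here. The genes are not independent of each other. Vil-Cre:NDI1 4 was high for Lyz1 (56443 normalized counts), Defa5 (8497), Defa21 (23907) and Defa22 (23694). Vil-Cre 4 was low for Defa3 (4727) and Defa26 (163), and Vil-Cre:NDI1 5 was low for Defa23 (6796) and high for Defa2 (587), a gene without a window of its own. For Defa2 the other 4 mice of that genotype were at 0, which fixed the flag in advance. Reg1 was high in Vil-Cre:NDI1 1 (471). Lyz2 was high in Vil-Cre 5 (759), the mouse with the most Ms4a1, and the part of B cells in it was not tested.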

How the results depend on the processing

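Without Vil-Cre 3 and Vil-Cre 4, an alternative chosen after seeing the data, DESeq2 called 276 genes and 1 member, Pigr, and edgeR called 1 gene and 0 members. Over all genes, 31 were called by DESeq2 on 10 libraries, 2 with array weights, and 1 to 3 when a mouse was left out (3 without Vil-Cre:NDI1 5, 2 without Vil-Cre:NDI1 1), against 1 with limma. The replicate block called 1 gene and 0 members with a median member log2 fold change of -0.10, and the numbers gave correlations of deviations from -0.12 to 0.14 between same-numbered mice, so the pairing was not used. The median member log2 fold change was -0.31 to 0.07 when a mouse was left out. Rescaling moved the median of all genes from 0.01 to -0.06.

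Signs turned for the members below, none of which passed the test, and the cause was not tested. Rescaling gave -0.058 for Lyz1 and -0.028 for Defa5. Array weights gave -0.25 for Lyz1, -0.33 for Defa-ps18 and -0.22 for Defa5. A pseudocount of 8 gave -0.11 for Defa-ps18. DESeq2 and edgeR gave -0.16 and -0.18 for Defa-ps18, and -0.042 and -0.054 for Defa5. Without Vil-Cre 3 and Vil-Cre 4 they gave -0.13 and -0.14 for Defa26, -0.34 and -0.36 for Lyz1, -0.71 and -0.72 for Defa-ps18, and -0.50 and -0.51 for Defa5. Leaving out a mouse gave log2 fold changes of -0.38 to 0.090 for Mmp7, -0.53 to 0.050 for Itln1, -0.34 to 0.052 for Pla2g2a, -0.33 to 0.20 for Lyz1, -0.46 to 0.071 for Defa24, -0.35 to 0.12 for Defa23, -0.50 to 0.12 for Defa3, -0.20 to 0.069 for Defa17 and -0.19 to 0.28 for Defa26. It gave -1.09 to 0.066 for Defa20, -0.72 to 0.24 for Defa21, -0.94 to 0.00995 for Defa22, -0.29 to 0.24 for Defa5, -0.80 to 0.51 for Defa-ps18, -0.48 to 0.048 for Defa-ps6, -2.97 to 0.081 for Defa2 (a log2 difference of -1.13 over all mice, although the mean was 70.1 in Vil-Cre and 117 in Vil-Cre:NDI1 mice) and -0.53 to 0.21 for Reg3d. The correlation of Pigr and Jchain was 0.69 within genotypes and 0.50 to 0.74 when a mouse was left out, and that of Lyz2 and Csf1r was 0.94 without 2 mice and 0.49 to 0.93 when a mouse was left out.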
